A study of Mus musculus with 12 samples.

Results

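The Ifi200 family, also called the PYHIN family, was followed in natural killer (NK) cells with and without the microRNA miR-142. The 9 genes named for it were Aim2, Ifi203, Ifi204, Ifi206, Ifi208, Ifi209, Ifi213, Ifi214 and Mndal. A gene entered with the probe set that carries its symbol and no other, and where a gene had several, the probe set was to be chosen by its highest mean over all arrays, a choice that no family gene called for. That gave 7 of the 9 genes a probe set, 1 each, out of 19938 genes measured in the same way. The only probe set for Ifi204 carries a second symbol, and Mndal is not in the platform annotation used, so neither is described by a signal here. All 7 genes lay above the filter on low signals and were tested among 11963 genes.

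The arrays came from C57BL6 mice aged 7 to 10 weeks, with knockout and wild type animals matched for age and sex. NK cells had been sorted as CD3-negative, NK1.1-positive cells, a gate that also admits type 1 innate lymphoid cells. The groups were miR142 KO spleen, miR142 WT spleen, miR142 KO bone marrow and miR142 WT bone marrow, with 3 arrays each. The labels do not say how the knockout was made or whether a spleen and a marrow sample came from 1 mouse. Arrays of a group are labelled as biological replicates with no animals named, so p-values measure the spread between these samples.

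PYHIN proteins carry a pyrin domain, which binds other pyrin domains, and most also carry a HIN domain, which binds DNA. AIM2 is the best understood member: it binds double-stranded DNA in the cytosol and recruits the adaptor ASC, the product of Pycard, to build an inflammasome that activates caspase-1. Genes of the family are known for induction by interferon, and the mouse genes lie side by side in a cluster whose members resemble each other in sequence. That resemblance bears on array signals, because a probe set may pick up RNA of a relative, and how far each probe set did so was not tested.

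MiR-142 gives rise to 2 mature microRNAs, whose sequences from RefSeq (GRCm38.p6, chr11:87756867-87756887 and chr11:87756903-87756925, plus strand) are shown because they are what the knockout cells lack. Capitals mark the seed, bases 2 to 8.
mmu-miR-142a-5p: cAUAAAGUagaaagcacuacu
mmu-miR-142a-3p: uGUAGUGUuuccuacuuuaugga

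The start regions of the genes show how the family divides by sequence. RefSeq windows of 300 bases, 250 before and 50 after the gene start, were found for 8 of the 9 genes, with 2 windows each for Ifi203 and Mndal. The first 2 sequences are the whole windows of Aim2 (GRCm38.p6, chr1:173420354-173420653, plus strand), the gene that rose in knockout cells, and of Ifi208 (chr1:173673415-173673714, plus strand), the gene that fell most. Capitals mark a match to GAAA, any 2 bases and GAAA again, a pattern like the interferon-stimulated response element, searched on both strands.
Aim2: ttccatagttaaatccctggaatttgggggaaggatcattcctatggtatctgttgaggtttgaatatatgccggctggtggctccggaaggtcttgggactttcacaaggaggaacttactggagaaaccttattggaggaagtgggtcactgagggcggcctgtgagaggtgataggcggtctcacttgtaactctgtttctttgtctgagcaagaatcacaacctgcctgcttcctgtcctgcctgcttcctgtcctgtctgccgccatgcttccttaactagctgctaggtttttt
Ifi208: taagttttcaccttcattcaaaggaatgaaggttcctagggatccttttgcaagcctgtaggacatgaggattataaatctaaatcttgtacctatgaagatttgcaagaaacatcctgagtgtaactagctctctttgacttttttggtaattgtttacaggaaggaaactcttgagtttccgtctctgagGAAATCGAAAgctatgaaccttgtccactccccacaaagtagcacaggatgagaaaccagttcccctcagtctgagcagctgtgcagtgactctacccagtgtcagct

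A match to this repeat of GAAA was found in windows of 6 of the 8 genes and in 3.44% of all 32851 promoter windows. In the windows of Ifi206, Ifi208, Ifi213, Ifi214, in the first of Mndal and in the second of Ifi203 it read GAAATCGAAA. Those letters, chosen after the matches had been read, stood in 16 of the 32851 windows (0.0487%), and 7 of the 16 belonged to the cluster, the seventh being Ifi207. The second window of Mndal held GAAAGAGAAA on the opposite strand. A second pattern, TTCNNNGAA, which is like the gamma-activated site and reads the same on both strands, had no match in these windows and was present in 8.3% of all windows. The windows of Aim2 and Ifi209 held neither pattern. A match is a run of letters and not a measured binding site, and whether a match goes with a genotype difference was not tested.

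The stretches around the match are set side by side to show how much they share, and all are from RefSeq, GRCm38.p6. They lie at chr1:173491334-173491373 (Ifi206, minus strand), chr1:173673592-173673631 (Ifi208, plus strand), chr1:173599321-173599360 (Ifi213, minus strand), chr1:173536012-173536051 (Ifi214, minus strand), chr1:173630765-173630804 (Ifi209, plus strand) and chr1:173942503-173942542 (Ifi203, minus strand). Capitals mark the match, or in Ifi209 the bases aligned with it.
Ifi206: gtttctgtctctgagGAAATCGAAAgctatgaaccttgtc
Ifi208: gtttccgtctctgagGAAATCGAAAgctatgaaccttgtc
Ifi213: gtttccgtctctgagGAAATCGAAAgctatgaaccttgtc
Ifi214: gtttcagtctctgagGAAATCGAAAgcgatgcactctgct
Ifi209: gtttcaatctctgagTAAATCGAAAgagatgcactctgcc
Ifi203: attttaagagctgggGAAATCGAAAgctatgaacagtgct

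Ifi209 differed from Ifi214 within these 10 bases by the substitution G1T, counted from 1 at the 5′ end of the match in Ifi214. Over the windows, Ifi206 and Ifi208 were identical at 98.9% of 282 aligned positions, Ifi208 and Ifi213 at 98.9% of 285, and Ifi206 and Ifi213 at 98.5% of 267. Ifi209 and Ifi214 were identical at 95.7% of 300, and the first Mndal and second Ifi203 windows at 94.3% of 299. The start regions thus fell into a set of 3, a pair of Ifi209 and Ifi214, and a pair of Mndal and Ifi203. That of Aim2 joined none of them, overlapping the other windows over only 5 to 83 aligned positions.

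Mir142 was read first as a check of the labels. Its log2 signal was 4.05, 4.59 and 4.50 in knockout spleen, against 6.77, 7.17 and 7.58 in wild type spleen. In knockout bone marrow it was 4.69, 4.70 and 4.26, against 7.10, 8.25 and 7.14 in wild type bone marrow. Every knockout array lay below every wild type array, as the genotype labels have it. NK cell markers were high throughout, with a mean log2 signal over 10 markers of 11.6 to 11.7 in knockout spleen and 11.5 to 11.7 in wild type spleen, and 11.4 to 11.5 in knockout and 11.3 to 11.5 in wild type bone marrow.

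The family did not move as 1 block between genotypes. Aim2 was higher in knockout NK cells of both tissues. Ifi206, Ifi208, Ifi209, Ifi213 and Ifi214 were lower, Ifi208 by the most. Ifi203, whose product also has a pyrin and a HIN domain, did not pass the test in either tissue. Differences are knockout minus wild type on the log2 scale with standard errors, from a limma fit to all 12 arrays. The threshold was a limma p under 0.05 after Benjamini-Hochberg adjustment over all tested genes. In sorted cells measured in bulk, fewer cells that express a gene and less of its RNA per cell cannot be told apart.

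In spleen 6 of the 7 genes were called, 1 higher and 5 lower, where 9.11% of all tested genes were called, 5.48% higher and 3.63% lower. In bone marrow 5 were called, 1 higher and 4 lower, where 8.65% of all genes were, 3.92% higher and 4.73% lower. Over both tissues 6 were called, 1 higher and 5 lower, where 19.1% of all genes were, 8.81% higher and 10.3% lower. The median difference of the 7 genes was -1.11 in spleen and -0.98 in bone marrow, while that of all tested genes was -0.013 and -0.012. In spleen the knockout arrays lay wholly above wild type for 1 gene and wholly below for 6, and in bone marrow for 1 and 5; the genotypes were separate in this way for 28.0% and 34.2% of all tested genes. The family was taken up with earlier results of these data known, so these counts and p-values describe it and are no independent evidence. Leaving out 1 array gave 3 to 6 called genes in spleen and 2 to 5 in bone marrow. The count was 3 in spleen without knockout spleen 2 or wild type spleen 3. These refits called 880 and 546 of all tested genes in spleen, beside 1090 in the main fit. In bone marrow the count was 3 without wild type spleen 3, knockout bone marrow 1 or knockout bone marrow 3. It was 2 without wild type bone marrow 1. Calls over all tested genes in these 4 refits were 818, 942, 700 and 371, beside 1035. Over both tissues 6 family genes were called in each of those refits, where 1675 to 2178 of all tested genes were called, beside 2290.

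**Figure D1:**
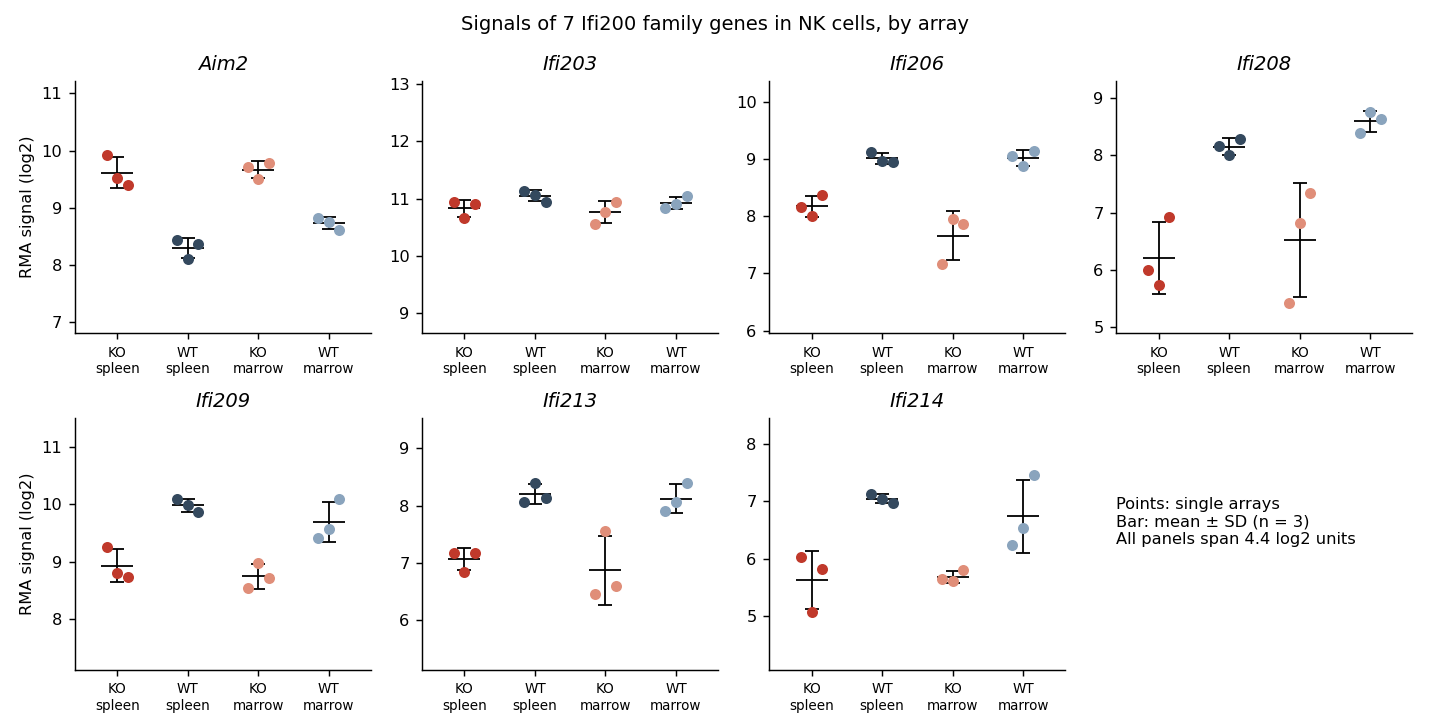
RMA signal (log2) of the 7 measured family genes in each array, by group (KO, knockout; WT, wild type; marrow, bone marrow). Points are arrays, bars are the mean ± SD of 3 arrays, and every panel spans the same range. Aim2 lies higher in both knockout groups, Ifi206, Ifi208, Ifi209, Ifi213 and Ifi214 lie lower, and Ifi203 stays within a narrow range.

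Aim2 (probe set 10351867), the DNA sensor of the inflammasome, had log2 signals of 9.92, 9.53 and 9.39 in knockout spleen, against 8.44, 8.11 and 8.36 in wild type spleen. Its bone marrow signals were 9.71, 9.51 and 9.78 in knockout, against 8.83, 8.76 and 8.61 in wild type. The 2 genotypes did not overlap in either tissue. Aim2 rose by 1.28 ± 0.15 in spleen, a 2.43-fold higher signal (limma, adjusted p = 0.000261, n = 3 arrays per group). In bone marrow it rose by 1.00 ± 0.17, or 1.99-fold (limma, adjusted p = 0.00355). These calls held in every refit of Aim2, with an adjusted p of at most 0.00551 in spleen and 0.0138 in bone marrow.

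By mean signal, Aim2 was highest in knockout bone marrow (9.67 ± 0.14, SD, n = 3), then knockout spleen (9.61 ± 0.27), wild type bone marrow (8.73 ± 0.11) and wild type spleen (8.30 ± 0.17). The 2 knockout groups overlapped and differed by 0.11 ± 0.17, bone marrow minus spleen. In wild type, bone marrow minus spleen was 0.40 ± 0.15, which did not pass (limma, adjusted p = 0.147). The knockout effect in bone marrow minus that in spleen was -0.28 ± 0.24, with a 95% interval from -0.81 to 0.24.

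Ifi208 (probe set 10351880) is also listed as Pydc3 in the gene table, a name for pyrin domain proteins. It had log2 signals of 5.99, 5.73 and 6.92 in knockout spleen, against 8.17, 8.0 and 8.29 in wild type spleen. In bone marrow the signals were 5.41, 6.81 and 7.35 in knockout and 8.39, 8.76 and 8.64 in wild type. Every knockout array lay below every wild type array, and the knockout arrays were spread wider. The SD was 0.62 in knockout and 0.15 in wild type spleen, and 1.00 in knockout and 0.19 in wild type bone marrow.

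Ifi208 fell by 1.88 ± 0.43 in spleen (limma, adjusted p = 0.0166) and fell by 2.19 ± 0.47 in bone marrow (limma, adjusted p = 0.0142), a 3.68-fold and a 4.57-fold lower signal. The spleen call was lost without knockout spleen 2 (adjusted p = 0.0510 in limma) or wild type spleen 3 (0.141), and the bone marrow call without wild type bone marrow 1 (0.0534). Array numbers in the labels form 2 runs, and within the first the spleen difference was -1.16, from 1 knockout and 2 wild type arrays, and within the second -2.43, from 2 knockout and 1 wild type arrays. Knockout spleen 3, the highest of its group, is the only knockout spleen array of the first run. The fitted run effect on Ifi208, second run minus first, was -0.18 (limma, adjusted p = 0.999). Why the knockout arrays spread was not tested.

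Ifi213 (probe set 10360373), listed also as Pydc4, had log2 signals of 7.17, 6.84 and 7.18 in knockout spleen, against 8.06, 8.40 and 8.14 in wild type spleen. Its bone marrow signals were 6.45, 7.57 and 6.61 in knockout, against 7.90, 8.06 and 8.40 in wild type. The genotypes were separate in both tissues, and knockout bone marrow 2 stood nearest to wild type. Ifi213 fell by 1.14 ± 0.26 in spleen and fell by 1.23 ± 0.29 in bone marrow (limma, adjusted p = 0.0173 and 0.0223). The spleen call was lost without knockout spleen 2 or 3 or wild type spleen 2 or 3, and the bone marrow call without knockout spleen 3, wild type spleen 3, knockout bone marrow 1 or 3, or wild type bone marrow 1. The limma adjusted p in these refits was 0.0510 to 0.0781.

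Ifi206 (probe set 10360367), the third gene with this start region, had log2 signals of 8.16, 7.99 and 8.37 in knockout spleen, against 9.12, 8.96 and 8.95 in wild type spleen. In bone marrow it had 7.16, 7.95 and 7.86 in knockout, against 9.04, 8.87 and 9.14 in wild type. The wild type groups overlapped, and both knockout groups lay below them. Ifi206 fell by 0.79 ± 0.19 in spleen (limma, adjusted p = 0.0213) and fell by 1.45 ± 0.21 in bone marrow (limma, adjusted p = 0.00128). The spleen call was lost without knockout spleen 2 or 3 or wild type spleen 1 or 3, at adjusted p values of 0.0624 to 0.129 in limma.

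Among the 7 genes Ifi206 had the smallest p for a difference between the tissue effects. Its knockout effect in marrow less that in spleen was -0.66 ± 0.30, with an unadjusted p of 0.0487 in limma that became 0.545 after adjustment. Its bone marrow minus spleen difference in knockout was -0.60 ± 0.21, which did not pass either (limma, adjusted p = 0.366).

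Ifi209 (probe set 10351873), listed also as Pyhin1, had log2 signals of 9.25, 8.81 and 8.73 in knockout spleen, against 10.10, 9.98 and 9.86 in wild type spleen. The bone marrow values were 8.54, 8.98 and 8.72 in knockout, against 9.42, 9.58 and 10.09 in wild type. Knockout lay below wild type in each array of both tissues. Ifi209 fell by 1.11 ± 0.19 in spleen, or 2.16-fold (limma, adjusted p = 0.00317), a call kept in every refit. In bone marrow it fell by 0.83 ± 0.21 (limma, adjusted p = 0.0318). That call was lost without wild type spleen 2 or 3, knockout bone marrow 1 or 3, or wild type bone marrow 1 (limma adjusted p from 0.0517 to 0.0829), and with the replicate number as a block (adjusted p = 0.0562).

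Ifi214 (probe set 10360370), whose start region resembles that of Ifi209, had log2 signals of 6.02, 5.06 and 5.81 in knockout spleen, against 7.13, 7.04 and 6.97 in wild type spleen. The bone marrow values were 5.64, 5.61 and 5.80 in knockout, against 6.24, 6.53 and 7.46 in wild type. The genotypes were separate in both tissues. The knockout signals were close to the filter of 5.49, a range in which log2 differences on arrays are compressed. Ifi214 fell by 1.46 ± 0.30 in spleen, or 2.74-fold (limma, adjusted p = 0.00936). In bone marrow the difference was -0.98 ± 0.33 and did not pass (limma, adjusted p = 0.0937), with an adjusted p of 0.0240 where the run of array numbers was left out of the fit. Within the first run, which holds 1 wild type bone marrow array, the bone marrow difference was -0.55.

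Ifi203 (probe set 10360391) had log2 signals of 10.94, 10.66 and 10.90 in knockout spleen, against 11.14, 11.07 and 10.94 in wild type spleen. In bone marrow it had 10.56, 10.77 and 10.94 in knockout, against 10.84, 10.90 and 11.04 in wild type. In spleen the genotypes were only just separate, and in bone marrow they overlapped. The difference was -0.20 ± 0.13 in spleen, with a 95% interval from -0.49 to 0.08, and -0.20 ± 0.14 in bone marrow, with an interval from -0.51 to 0.12 (limma, adjusted p = 0.413 and 0.437). Over both tissues it was -0.20 ± 0.09 (adjusted p = 0.152). These intervals leave out a fall of the size seen in Ifi208 but not a small one.

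**Figure D2:**
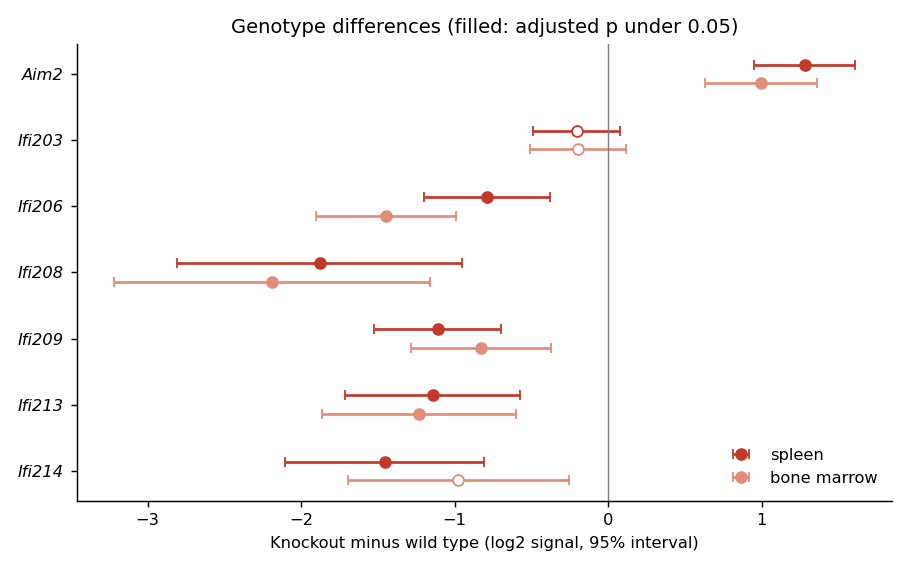
Knockout minus wild type differences (log2 signal) of the 7 genes in spleen (dark) and bone marrow (light). Points are limma estimates and bars their 95% intervals; filled points had an adjusted p under 0.05. Aim2 alone lies to the right of 0, at 1.28 and 1.00, and the intervals of Ifi203 include 0 in both tissues.

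Over both tissues, Aim2 rose by 1.14 ± 0.10 (limma, adjusted p = 1.43e-05). The 5 genes that fell were Ifi208 at -2.03 ± 0.29, Ifi214 at -1.22 ± 0.21, Ifi213 at -1.19 ± 0.18, Ifi206 at -1.12 ± 0.13 and Ifi209 at -0.97 ± 0.13, with limma adjusted p values of at most 0.00142. These 6 calls held in every refit that could give the value. The knockout effect in bone marrow did not differ detectably from that in spleen for any of the 7 genes: limma called 0 of them, 1 had an unadjusted p under 0.05, and 0.00836% of all genes were called.

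Bone marrow was also set against spleen within each genotype. In knockout 0 of 7 genes were called by limma, with 1, Ifi206, at an unadjusted p under 0.05, where 0.318% of all genes were called, 0.0920% higher and 0.226% lower. In wild type 0 of 7 were called, with 1, Aim2, at an unadjusted p under 0.05, where 5.37% of all genes were called, 4.34% higher and 1.04% lower. The tissue differences of the 7 genes ran from -0.60 to 0.19 in knockout and from -0.35 to 0.50 in wild type. With 3 arrays a group their intervals were wide, reaching from -0.84 to 1.22 for Ifi208 in knockout.

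In the RefSeq gene order of GRCm38.p6, the family occupies 1 stretch of chromosome 1, with Aim2 at an end. Next to it come Ifi206, Ifi214, Ifi213, Ifi209 and Ifi208, the 5 genes that fell, with no other protein-coding gene between them. Ifi207 follows, then Ifi204, Mndal, Ifi211, Ifi203, Ifi202b and Ifi205. Ifi207, Ifi202b and Ifi205 had probe sets of their own but lay below the filter.

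Without the filter, Ifi207 stood at -0.33 ± 0.11 over both tissues (limma, adjusted p = 0.0731), Ifi202b at -0.08 ± 0.08 and Ifi205 at -0.02 ± 0.08, and none of the 3 passed. Their log2 signals over all arrays were 4.24 to 5.13, 2.98 to 3.32 and 3.13 to 3.72. The lower quartile of the arrays was 4.55 to 4.72, so Ifi202b and Ifi205 were in the range of the dimmest probe sets.

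**Figure D3:**
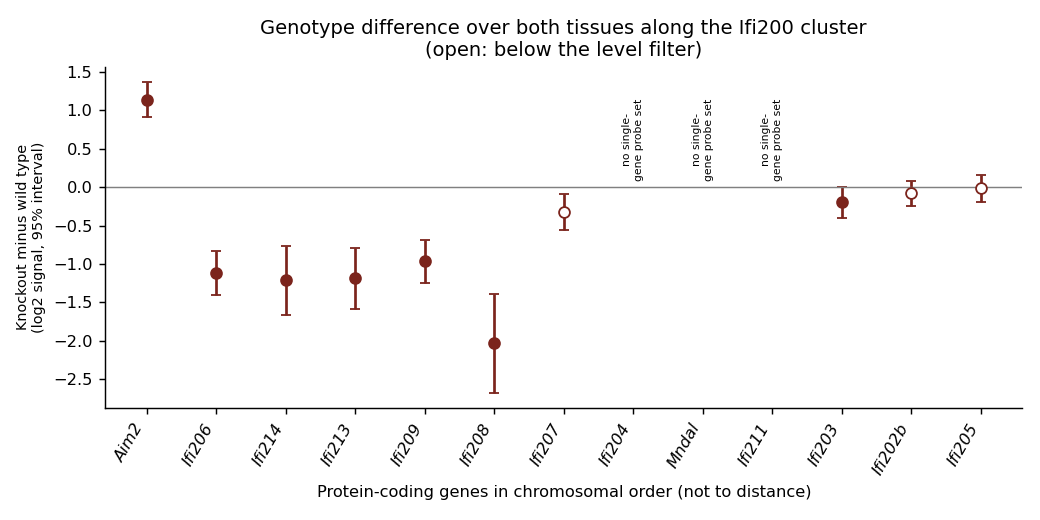
Knockout minus wild type difference over both tissues (log2 signal) for the 13 protein-coding genes of the cluster, in chromosomal order and not to distance, with Ifi204, Mndal and Ifi211 left blank for want of a probe set of their own. Bars are 95% intervals and open points mark genes below the level filter. Aim2 is at 1.14, the 5 genes beside it are between -2.03 and -0.97, and Ifi203 is at -0.20.

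Genes on either side of the cluster, taken as the 3 nearest tested protein-coding genes on each side after the data had been seen, mostly did not pass. They lay at a distance, 717 to 786 kb before the cluster and 218 to 1631 kb after it. Fcrl6, an Fc receptor-like gene, rose by 0.71 ± 0.19 over both tissues (limma, adjusted p = 0.0205). Vsig8, Dusp23, Olfr419, Fh1 and Opn3 stood between -0.18 and 0.19 and did not pass.

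Within groups the arrays moved some genes together. After each group's mean was removed, Ifi206 and Ifi208 correlated at r = 0.84 over the 12 arrays, Ifi203 and Ifi206 at 0.75, and Ifi209 and Ifi214 at 0.72. Aim2 correlated with the other 6 at -0.48 to 0.11. These are Pearson values over arrays that share a normalization, given as a description.

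The tested genes most like each family gene over the 12 arrays were found by Pearson correlation, which here mostly follows the group means. For Aim2 they were Srgn, which encodes the granule proteoglycan serglycin, Tmsb15a and the ubiquitin ligase gene Nedd4 (r = 0.98, 0.98 and 0.97). Their knockout minus wild type differences over both tissues were 0.53, 2.59 and 1.02, which the choice by likeness to Aim2 largely fixes. For Ifi208 they were Prpf8, a core spliceosome gene, the selectin gene Sele and Acyp1 (r = 0.97, 0.95 and 0.93).

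For Ifi206 the most alike were Zfp110, the phosphofructokinase gene Pfkp and Cap1 (r = 0.98, 0.97 and 0.96), and for Ifi209 the kinase gene Stk38, Atp11b and the tetraspanin gene Cd53 (r = 0.98, 0.97 and 0.97). For Ifi213 they were Polr3b, Pgap6 and Rassf2 (r = 0.96 for each), and for Ifi214 the receptor gene Tlr4, Cyfip2 and Cenpo (r = 0.96, 0.95 and 0.95). All 12 of these had a difference below 0 over both tissues, as did the 3 named for Ifi208, again as the choice by likeness largely fixes. For Ifi203 they were Pyroxd1, Gimap6 and Zfhx2 (r = 0.95, 0.93 and 0.92).

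Of 18 genes listed as inflammasome partners and products, each with a probe set, 9 were tested. Over both tissues 3 rose and 0 fell, with a median of 0.22. The list is not limited to partners of AIM2. Of all tested genes 19.1% were called over both tissues, 8.81% higher and 10.3% lower, with a median of -0.0077. The same shares stand behind the counts of the other lists over both tissues, with 9.11% called in spleen and 8.65% in bone marrow. Casp4, the caspase that senses lipopolysaccharide, rose by 0.49 ± 0.12, Pycard by 0.34 ± 0.08 and Il18bp, whose product binds IL-18, by 0.34 ± 0.10 (limma, adjusted p = 0.0145, 0.0155 and 0.0328). In spleen 1 of the 9 rose, the gasdermin gene Gsdme by 0.61 ± 0.17 (limma, adjusted p = 0.0408), and in bone marrow limma called 0 of 9. Casp1, the caspase that AIM2 activates, stood at 0.13 ± 0.09 over both tissues and did not pass (limma, adjusted p = 0.393).

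Of 24 genes for sensing DNA and RNA in the cytosol 22 were tested, and over both tissues 3 rose and 2 fell, with a median of -0.14, a share of calls near the 19.1% of all tested genes. Ifih1, the double-stranded RNA sensor MDA5, rose by 0.68 ± 0.11, and Trex1, a nuclease that clears cytosolic DNA, by 0.45 ± 0.12. Samhd1, which degrades deoxynucleotides, fell by 0.56 ± 0.08, and the kinase gene Ikbke fell by 0.33 ± 0.08 (limma, adjusted p for the 4 at most 0.0170). In spleen 1 of 22 rose, Ifih1, and 1 fell, Samhd1, and in bone marrow Samhd1 was the 1 that fell. Cgas, the other main cytosolic DNA sensor, stood at -0.16 ± 0.08 over both tissues and its adaptor Sting1 at -0.14 ± 0.09, and neither passed (limma, adjusted p = 0.215 and 0.306).

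Of 15 interferon receptor and signalling genes with a probe set 14 were tested, and over both tissues 2 rose and 3 fell, with a median of -0.09, beside 19.1% called among all tested genes. The receptor gene Ifnar1 rose by 0.45 ± 0.08, the kinase gene Jak1 fell by 0.46 ± 0.07 and Tyk2 fell by 0.34 ± 0.08, and Ifng, the interferon gamma gene, fell by 1.72 ± 0.21 (limma, adjusted p at most 0.0105). In spleen 0 rose and 2 fell, and in bone marrow 1 rose and 2 fell.

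Of 30 interferon-stimulated genes outside the family with a probe set 23 were tested, of which 4 rose and 2 fell over both tissues, with a median of 0.10. Among all tested genes 8.81% were called higher and 10.3% lower. Isg20, an exonuclease gene, rose by 1.18 ± 0.15, Gbp3 by 0.54 ± 0.10, Ifit1 by 0.56 ± 0.17 and Oas3 by 0.34 ± 0.09 (limma, adjusted p at most 0.0343), and the 2 that fell were Slfn1 at -0.32 ± 0.10 and Trim30a at -0.37 ± 0.12 (adjusted p at most 0.0481). In spleen 3 rose and 0 fell, and in bone marrow 1 rose and 0 fell.

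**Figure D4:**
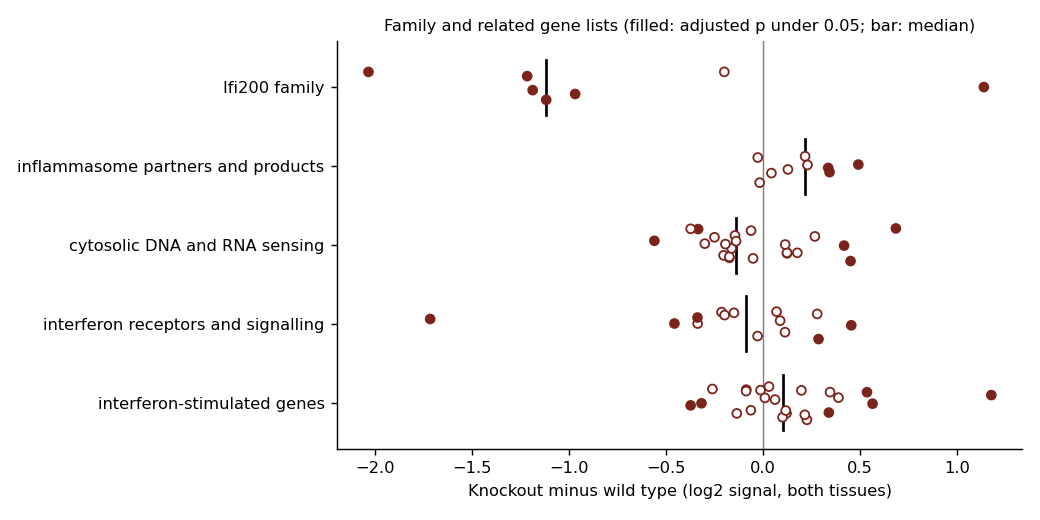
Knockout minus wild type differences over both tissues (log2 signal) for the family and 4 lists of related genes, with 1 point a gene. Filled points had an adjusted p under 0.05 and vertical bars are medians, at -1.12 for the family and between -0.14 and 0.22 for the lists.

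Some genes listed as markers of other cells that a sort may hold moved with genotype beside these genes. In bulk RNA, signal of such a gene from NK cells and from other cells cannot be told apart. The part of these markers in the family's differences was not tested. Of 5 tested dendritic cell markers out of 10, 4 rose over both tissues and 0 fell, with 4 higher in spleen and 2 in bone marrow. Zbtb46, the other marker tested, stood at 0.09 ± 0.08 over both tissues and did not pass (limma, adjusted p = 0.470). Itgax rose by 1.36 ± 0.11 in spleen, and its bone marrow difference was 1.46 ± 0.12 (limma, adjusted p at most 3.1e-05). H2-Aa rose by 2.00 ± 0.33 in spleen (limma, adjusted p = 0.00247) and stood at 0.59 ± 0.36 in bone marrow, where it did not pass (limma, adjusted p = 0.346). Their mean log2 signal over the 10 was 6.65 to 6.69 in knockout and 6.06 to 6.30 in wild type spleen, and 6.52 to 6.57 in knockout and 6.05 to 6.21 in wild type bone marrow. Cd209a, Clec9a, Flt3, Siglech and Xcr1, which define dendritic subsets, were under the filter.

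Of 11 monocyte and macrophage markers 5 were tested, and in spleen 2 fell, Ccr2 at -1.33 ± 0.12 and Ms4a6c at -1.29 ± 0.17 (limma, adjusted p at most 0.000625), while in bone marrow limma called 0 of 5. Their mean log2 signal was 5.76 to 6.05 in knockout and 6.18 to 6.27 in wild type spleen, and 6.17 to 6.31 in knockout and 6.22 to 6.44 in wild type bone marrow. Csf1r, Adgre1, Cd14, Fcgr1, C1qb and C1qc lay below the filter. Of 11 granulocyte markers 8 were tested, and in bone marrow 4 fell and 0 rose, while in spleen 1 rose, S100a8 by 1.81 ± 0.37 (limma, adjusted p = 0.00977), and 0 fell. Their mean was 5.92 to 6.64 in knockout and 7.28 to 7.55 in wild type bone marrow, and 5.74 to 6.34 in knockout and 5.33 to 5.83 in wild type spleen. Of 9 T cell markers 7 were tested, with 4 lower in bone marrow and 2 in spleen, at means of 6.20 to 6.46 in knockout and 6.90 to 7.07 in wild type bone marrow, and 6.17 to 6.41 in knockout and 6.38 to 6.52 in wild type spleen. Of 4 tested B cell markers 1 fell over both tissues, and of 3 tested erythroid markers 1 rose.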

How the data were processed

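The authors deposited 1 log2 signal for each probe set and array, from Affymetrix Expression Console and RMA per the submitters' processing notes, with no version or genome build given in the sources used here. RNA was extracted with Trizol and amplified with a NuGEN kit, per the labels' protocols. Of 35556 probe sets 21789 carried 1 gene symbol, 1621 several and 12146 none in the platform annotation. The genes tested were those whose mean exceeded the 40th percentile, 5.49.

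A mean per group and the run of array numbers (7 and 5 arrays, read from the labels) were fitted in limma 3.58.1 (R 4.3.3) to all 12 arrays. P-values are two-sided. The steps were tested on simulated data. The number of arrays, not read depth, limits the precision. Members and lists were chosen with earlier results of these data known. Named were the members, the 3 most alike genes of each, Mir142, and 2 to 4 genes with the smallest p of each pathway list. Casp1, Cgas, Sting1, Slfn1 and Trim30a were added after their values were seen. Promoter windows were aligned with Biopython 1.88 with free end gaps. Alternatives were the run term, replicate block, groups fitted alone, filters, scalings, probe set averaging, prior trend and single arrays left out.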

Additional observations from a re-analysis of the deposited data

How the results depend on the processing

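The limits are 3 arrays a group, 2 runs of arrays that split the groups unevenly, and low signals for Ifi214 and Ifi208 in knockout. For the 17 called differences between knockout and wild type, all 349 refits with a test kept the direction. The 17 values within a run also kept it, but they cover only the spleen and bone marrow calls, not those over both tissues. In bone marrow these values come from the first run alone and rest on 1 wild type array, because the second run has no knockout array of that tissue. The call was kept in 327 of the 349 refits, and lost in 21 that leave out 1 array and in 1 with the replicate block. These refits hold fewer arrays or degrees of freedom. Some of their estimates were smaller in size than in the main fit and some larger, and why the calls were lost was not tested. Leaving out 1 array gave 3 to 6 called genes in spleen and 2 to 5 in bone marrow. Over all tested genes the same refits called 546 to 1083 in spleen and 371 to 1006 in bone marrow. The replicate block gave 6 calls for spleen, 4 for marrow and 6 for the tissues together. Its calls over all tested genes were 1093, 975 and 2277. Deviations of same-numbered arrays from their group means correlated at r from -0.02 to 0.24. Differently numbered arrays were not compared, so these values cannot exclude pairing. The labels name no pairs, and the main fit took none. Filtering at the 60th percentile removed Ifi214.

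Small differences that did not pass changed sign in some refits, and the cause was not tested. The tissue difference of the knockout effect in Ifi203 was -0.0086 with the replicate block and -0.056 with arrays centred on their median. That of Ifi213 was 0.00013 with quantile normalization applied again, where bone marrow minus spleen in wild type was -0.018 for Ifi206. Leaving out 1 array moved the difference of effects from -0.17 to 0.13 in Ifi203, -0.80 to 0.56 in Ifi208, -0.43 to 0.12 in Ifi213 and -0.15 to 0.87 in Ifi214. Bone marrow minus spleen ranged in knockout from -0.083 to 0.22 in Aim2, -0.19 to 9.4e-05 in Ifi203, -0.22 to 0.92 in Ifi208, -0.18 to 0.055 in Ifi209, -0.52 to 0.037 in Ifi213 and -0.088 to 0.46 in Ifi214. In wild type it ranged from -0.19 to 0.012 in Ifi203, -0.022 to 0.12 in Ifi206, -0.21 to 0.12 in Ifi213 and -0.65 to 0.077 in Ifi214. Over all genes in bone marrow, 469 were called higher and 566 lower, against 539 and 380 with quantile normalization applied again. Without wild type bone marrow 1 the bone marrow count over all genes was 371, beside 1035.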
